A study of Mus musculus with 20 samples.

Results

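The genes described here are the Phase II conjugation enzymes of the mouse liver: the cytosolic glutathione transferases (symbols Gst followed by a class letter and number), the UDP-glucuronosyltransferases of families Ugt1 and Ugt2, and the sulfotransferases (Sult). They were chosen by symbol alone, from array probe sets annotated to 1 gene, with the probe set of highest mean standing for a gene. This gave 41 of 18194 genes, of which 20 were glutathione transferases, 8 glucuronosyltransferases and 13 sulfotransferases. The RefSeq table of GRCm38.p6 lists 62 coding genes with such symbols. Of these, 11 are read only by probe sets shared with other genes, among them the *Ugt1a* genes, and 10 had no probe set in the annotation used.

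Liver RNA came from 10 transgenic (tg) mice that carry p62, the splice form IMP2-2 of the mRNA-binding protein IMP2, and from 10 wildtype (wt) mice. All 20 mice had the C57Bl6J/DBA2 background, were untreated and were killed at 5 weeks of age, and the labels give 1 array for each mouse. The series is described as a liver-specific transgenic model. The sources used here give neither the promoter that drives the transgene nor the sex of the mice, and *Igf2bp2*, the gene of the transgene's protein, was not analysed here, so the labels were taken as given. Values are log2 signals.

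Some arrays need care. In 2 cases a pair of wt arrays (wt_1407_2 and wt_1420_6, wt_1407_5 and wt_1420_7) was almost the same, with SDs of 0.168 and 0.172 for their log2 difference over all probe sets, against 0.228 to 0.401 for other wt pairs. Such pairs were counted once in wt means, SDs and ranges (n = 8), whereas limma used all 20 arrays as separate mice. A tg and a wt array, tg_1386_9 and wt_1386_4, lay even closer (0.155) and kept their labels. Whether an RNA was hybridized again or an array mislabelled in these pairs was not tested, and no source used here says. Nothing else says how the mice are related, so p values measure the spread between these arrays. All 9 measured hepatocyte markers were among the strong signals in both genotypes, with means of 11.33 to 14.40. *Xist*, expressed from the inactive X chromosome of females, was weak in both genotypes (log2 difference -0.04, SE 0.12), while the Y-linked *Eif2s3y* was measured at 9.12 ± 0.17 (mean ± SD, tg, n = 10) and 9.05 ± 0.08 (wt, n = 8).

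Phase II enzymes attach a polar group to drugs, bile acids, steroids, bilirubin and reactive products of metabolism, so that transporters can move them into bile or blood. Glutathione transferases use glutathione, glucuronosyltransferases use UDP-glucuronic acid and sulfotransferases use the sulfate donor PAPS. In the liver these genes are controlled by sensors of foreign compounds and oxidative stress such as NRF2, AhR, CAR and PXR, and in rodents several of them differ between males and females under the pattern of growth hormone release.

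*Ugt2b37*, a glucuronosyltransferase, and *Gsta2*, an alpha-class glutathione transferase, were higher in *IMP2-2* tg than in wt livers. No Phase II gene was lower. By limma with Benjamini-Hochberg adjustment over all probe sets, 2 of 41 members passed as higher and 0 as lower, where 2.98% of all genes passed as higher and 0.967% as lower. At an unadjusted p under 0.05 there were 5 higher and 5 lower, 12.2% in either direction, and over all genes the shares were 13.0% and 12.2%. The ranges of tg and wt arrays overlapped for each of the 41 members, while 0.121% of all genes had ranges apart. Without tg_1420_4, tg_1423_2-8_1, tg_1423_2-8_4 and wt_1423_2-8_9, the arrays in which male-biased liver genes were lowest, 0 members passed, and over all genes 76 were higher in place of 542. The log2 fold change then went from 1.80 to 1.26 for *Ugt2b37* and from 0.81 to 0.78 for *Gsta2*.

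Median log2 fold changes were -0.04 for glutathione transferases, -0.06 for glucuronosyltransferases and -0.04 for sulfotransferases, beside -0.02 for all genes. Over the 7 sulfotransferases at or above the median signal the median was -0.32. In 33 of 41 members the mean of tg or wt livers reached 4.53, the median of all probe sets. The 8 others, listed at their family below, were weak in both genotypes, so they say nothing of a change. Of the 33, 25 had a 95% confidence interval within 1 log2 unit of no change (75.8%, against 96.3% of all genes at or above that signal), and 13 within 0.5 (39.4% against 82.7%). Those genes were not matched to the members in signal. The plot of fold changes gives each member.

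**Figure D1:**
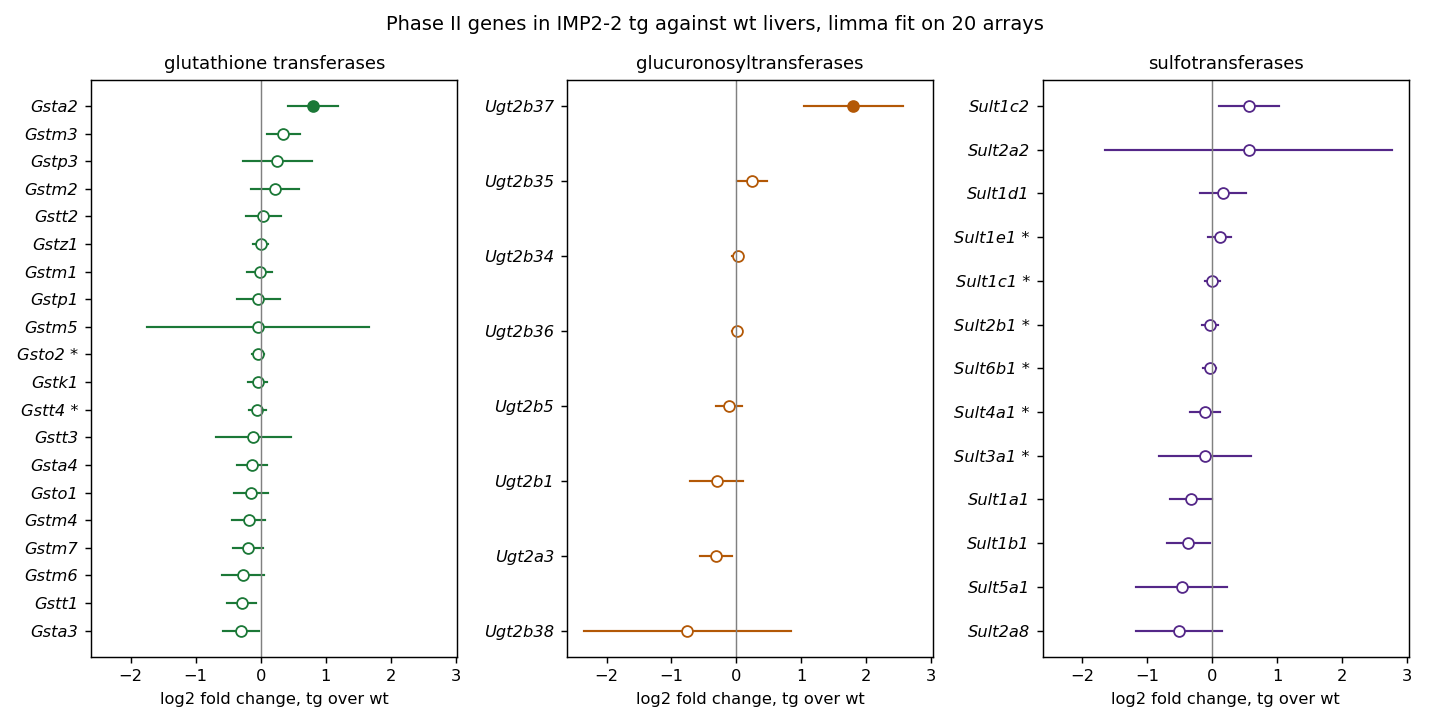
Log2 fold change of each of the 41 Phase II genes, *IMP2-2* tg (n = 10) over wt arrays (n = 10), with the 95% confidence interval of the limma fit as a line. Filled dots, *Gsta2* and *Ugt2b37*, have an adjusted p under 0.05, and an asterisk marks the 8 genes weak in both genotypes. *Ugt2b38*, *Gstm5* and *Sult2a2* have the widest intervals.

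Glucuronosyltransferases sit in the endoplasmic reticulum, and those of family Ugt2b act on steroids, bile acids and drugs. *Ugt2b37* ranged from 6.48 to 9.75 in tg livers, with a median of 8.31, and from 5.58 to 7.06 in wt livers, with a median of 6.55. It was above every wt profile in 8 of 10 tg livers, and the 2 that overlapped wt were tg_1420_12 and tg_14231_6. Of the 8, tg_1386_9 (7.11) lay just above the highest wt value, 7.06 in its almost identical array wt_1386_4. Means ± SD were 8.23 ± 1.16 (n = 10) and 6.49 ± 0.45 (n = 8). The log2 fold change in limma over all 20 arrays was 1.80 (SE 0.37, limma adjusted p = 0.0144), or 3.47-fold with a 95% confidence interval of 2.05 to 5.90. A two-sided exact permutation test over all 43758 splits of the 18 profiles gave p = 0.00158. It was run only on probe sets that limma had already called on the same values, so it is no separate support.

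Size of the *Ugt2b37* difference varied between livers that share a number in their sample names. Within the 6 numbers, which are not independent comparisons, it was positive in 6 of 6, from 0.05 to 3.08. Almost identical wt arrays carry different numbers, so some of these differences share nearly the same wt values. The difference was largest for the tg_1423_2-8 and wt_1423_2-8 livers. The smallest belongs to the almost identical arrays tg_1386_9 (7.11) and wt_1386_4 (7.06), and without these 2 the log2 fold change was 1.99 (limma adjusted p = 0.00769). The highest tg values were 9.75 in tg_1423_2-8_4, 9.70 in tg_1423_2-8_1 and 9.17 in tg_1420_4. Without these 3 and wt_1423_2-8_9 the log2 fold change was 1.26 and did not pass (limma adjusted p = 0.110). The call held in each of 20 fits that left out 1 array, with log2 fold changes of 1.63 to 1.99. Each of these fits kept at least 1 almost identical wt pair. With the almost identical wt arrays averaged, the log2 fold change was 1.74 and barely passed (limma adjusted p = 0.0495). In that fit 163 of all genes were higher in place of 542.

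*Ugt2b38* lies in the same gene cluster. On GRCm38.p6 the coding genes run *Ugt2b5*, *Ugt2b37*, *Ugt2a3*, *Ugt2b38* and *Ugt2a1* next to each other. *Ugt2b38* ranged from 3.75 to 8.93 in tg (median 7.69) and from 4.03 to 9.56 in wt livers (median 8.07). Its log2 fold change was -0.76 with a 95% confidence interval of -2.35 to 0.83 (limma adjusted p = 0.609), so the ranges nearly coincide. It was low, from 3.75 to 5.00, in tg_1420_4, tg_1423_2-8_1, tg_1423_2-8_4 and wt_1423_2-8_9. In the 3 tg livers of this set *Ugt2b37* was at its highest, and in wt_1423_2-8_9 it stood at 6.67, inside the wt range.

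The 250 bases before the RefSeq start of *Ugt2b37* (chr5:87254789-87255038, minus strand, GRCm38.p6) and of *Ugt2b38* (chr5:87424204-87424453, minus strand) are shown because these neighbours have nearly the same upstream sequence and differed in signal between the same livers. Both are written in the direction of transcription, and capitals mark bases that differ from the other promoter or have no partner in an end-free global alignment.
Ugt2b37: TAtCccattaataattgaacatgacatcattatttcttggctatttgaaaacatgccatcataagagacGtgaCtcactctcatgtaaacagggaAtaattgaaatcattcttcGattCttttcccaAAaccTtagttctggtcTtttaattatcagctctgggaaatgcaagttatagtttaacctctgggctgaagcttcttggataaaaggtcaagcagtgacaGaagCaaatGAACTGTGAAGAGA
Ugt2b38: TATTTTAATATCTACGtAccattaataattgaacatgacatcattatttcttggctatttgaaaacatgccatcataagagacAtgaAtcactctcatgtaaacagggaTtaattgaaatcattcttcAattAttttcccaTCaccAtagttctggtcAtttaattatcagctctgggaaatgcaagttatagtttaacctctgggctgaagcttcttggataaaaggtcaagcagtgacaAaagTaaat

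The 2 windows share 222 of 250 bases and differ at 14 aligned bases. This was the highest count among 666 pairs of member promoters, whose median was 113 matching bases. The next were *Ugt2b38* with *Ugt2b5* (212) and *Ugt2b37* with *Ugt2b5* (198). *Ugt2b5*, the third gene of this group, had values of 12.06 to 12.72 in tg and 12.06 to 12.71 in wt livers (log2 fold change -0.11, SE 0.10, limma adjusted p = 0.530). Its 4 lowest values, 12.06 to 12.14, were in tg_1420_4, tg_1423_2-8_1, tg_1423_2-8_4 and wt_1423_2-8_9, where *Ugt2b38* was also low. All others were at least 12.43. How alike the transcripts are was not examined, so probe sets of these genes could take up signal from one another.

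Of the other 5 glucuronosyltransferases, none passed. *Ugt2a3*, which conjugates bile acids, ranged from 9.99 to 10.97 in tg (median 10.87) and from 10.84 to 11.19 in wt livers (median 11.03). It lay below the wt median in 10 of 10 tg livers, and below every wt profile in 3, again tg_1420_4 and both tg_1423_2-8 livers. Its log2 fold change was -0.31 (SE 0.12, limma adjusted p = 0.131) and -0.09 without these 3 and wt_1423_2-8_9.

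*Ugt2b1* showed the same livers as its lowest, 10.94 in tg_1423_2-8_1, 11.47 in tg_1423_2-8_4, 11.59 in tg_1420_4 and 11.63 in wt_1423_2-8_9, while the medians were 12.38 in tg and 12.49 in wt (log2 fold change -0.30, SE 0.19, limma adjusted p = 0.391). *Ugt2b35* ran from 10.81 to 11.39 in tg and from 10.44 to 11.50 in wt livers (0.24, SE 0.11, adjusted p = 0.226). *Ugt2b34* and *Ugt2b36* were the steadiest members of the family, with 95% confidence intervals of -0.07 to 0.10 and -0.07 to 0.07. For *Ugt2b34*, a second probe set gave a log2 fold change of -0.02 where the first gave 0.02.

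The *Ugt1a* genes, of which *Ugt1a1* conjugates bilirubin, are spliced from alternative first exons to shared last exons, and 3 probe sets are annotated to 8 of them at once. Their log2 fold changes were -0.13, -0.10 and -0.07, with limma adjusted p values of 0.259, 0.296 and 0.556. They are not assigned to a single gene. The probe set of *Ugt2a1* and *Ugt2a2* was weak (3.32 in tg, 3.38 in wt).

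Among glutathione transferases, the alpha class handles products of lipid peroxidation and other electrophiles. *Gsta2* ranged from 8.57 to 9.93 in tg livers, with a median of 9.10, and from 7.77 to 9.31 in wt livers, with a median of 8.32. All 10 tg livers were above the wt median and 3 were above every wt profile, so the groups overlapped widely. The highest wt values, 9.31 in wt_14231_2 and 8.91 in wt_1386_4, fell within the tg range. Means ± SD were 9.15 ± 0.40 (n = 10) and 8.42 ± 0.50 (n = 8), and the log2 difference was 0.81 (SE 0.18, limma adjusted p = 0.0254, two-sided exact permutation p = 0.00377).

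Within the shared numbers, which are not independent comparisons, *Gsta2* was higher in tg in 5 of 6, by 0.02 to 1.56, and lower in tg_14231_6 than in wt_14231_2 (-0.67). With the almost identical wt arrays averaged, its log2 fold change was 0.72 and no longer passed (limma adjusted p = 0.0842). Without tg_1420_4 it was 0.79 (adjusted p = 0.0515) and without tg_1423_2-8_1 it was 0.78 (adjusted p = 0.0509), so neither fit called it although its size hardly moved. In these fits 262 and 275 of all genes were higher in place of 542. Without the 4 arrays named above the difference was 0.78 (adjusted p = 0.176). A probe set that *Gsta2* shares with *Gsta1* and *Gm3776* gave 8.70 ± 0.47 (tg, n = 10) and 7.87 ± 0.45 (wt, n = 8). Its log2 difference in limma over all 20 arrays was 0.88 (SE 0.19, limma adjusted p = 0.0178). Signal of *Gsta1*, which has no probe set of its own here, cannot be told apart from that of *Gsta2* in it.

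The 250 bases before the RefSeq start of *Gsta2* (chr9:78347146-78347395, minus strand, GRCm38.p6) are shown since this gene was called. Capitals mark the core of the xenobiotic response element, GCGTG, to which AhR binds.
Gsta2: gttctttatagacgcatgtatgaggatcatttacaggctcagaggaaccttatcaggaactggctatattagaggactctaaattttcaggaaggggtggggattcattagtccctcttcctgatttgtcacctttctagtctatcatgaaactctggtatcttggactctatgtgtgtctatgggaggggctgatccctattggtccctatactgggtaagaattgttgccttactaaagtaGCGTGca

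*Gsta3*, the enzyme by which mice detoxify aflatoxin, ranged from 11.42 to 12.56 in tg (median 12.24) and from 12.01 to 12.61 in wt livers (median 12.35). Its 3 lowest tg values were those of tg_1423_2-8_1, tg_1423_2-8_4 and tg_1420_4, below every wt profile. The log2 fold change was -0.31 (SE 0.13, limma adjusted p = 0.193) and -0.07 without these 3 and wt_1423_2-8_9. Its second probe set gave -0.28 (adjusted p = 0.154). *Gsta4*, which acts on the lipid aldehyde 4-hydroxynonenal, had -0.13 (adjusted p = 0.543).

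The mu class acts on epoxides and other electrophiles, and none of its members passed. *Gstm3* ranged from 9.94 to 10.81 in tg and from 9.67 to 10.37 in wt livers, with 5 of 10 tg livers above every wt profile (log2 fold change 0.35, SE 0.12, limma adjusted p = 0.118). Its second probe set gave 0.28. Without the 4 arrays the value of *Gstm3* was 0.15.

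*Gstm5* had a wide range in both genotypes, from 8.15 to 13.07 in tg and from 8.11 to 12.94 in wt livers. Some wt arrays lay between 8.11 and 8.77 (wt_1386_4, wt_1407_2, wt_1420_6, wt_1423_2-8_3, wt_14231_2). The others lay between 11.62 and 12.98 (wt_1371_4, wt_1407_5, wt_1420_1, wt_1420_7, wt_1423_2-8_9), with none between. The almost identical pair wt_1407_2 and wt_1420_6 is in the lower set, and wt_1407_5 and wt_1420_7 are in the upper. Tg livers filled the range more evenly, with 10.07 in tg_1407_3 and 10.92 in tg_1407_9, and the highest values, 13.07 and 13.01, in both tg_1423_2-8 livers. The means ± SD were 10.36 ± 1.78 in tg (n = 10) and 10.35 ± 2.19 in wt (n = 8). The log2 fold change in limma over all 20 arrays was -0.04 with a 95% confidence interval of -1.75 to 1.67. Among genes at or above the median signal, 0.0753% had a larger SD over wt profiles.

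Livers with the same number differed in *Gstm5* by as much as -3.15 (tg_1371_2 against wt_1371_4) and 2.47 (the tg_1423_2-8 against the wt_1423_2-8 mean). The mean of male-biased liver genes was 11.19, 10.39, 10.99, 10.39 and 7.53 in the 5 wt arrays with high *Gstm5*, in the order given above. It was from 10.94 to 11.43 in the 5 with low *Gstm5*. Each set of 5 holds 1 of the almost identical wt pairs. The gene lies between *Eps8l3* and *Gstm7* on GRCm38.p6. Its other relatives *Gstm1*, *Gstm2*, *Gstm4*, *Gstm6* and *Gstm7* had log2 fold changes of -0.27 to 0.22 and did not pass. The 250 bases before its RefSeq start (chr3:107895604-107895853, plus strand, GRCm38.p6) are shown because it varied most of the 20 glutathione transferases. In capitals are the core of the antioxidant response element, TGACNNNGC, the site of NRF2, and 2 copies of the reverse complement of GCGTG, of which 1 forms its end and 1 lies farther upstream.
Gstm5: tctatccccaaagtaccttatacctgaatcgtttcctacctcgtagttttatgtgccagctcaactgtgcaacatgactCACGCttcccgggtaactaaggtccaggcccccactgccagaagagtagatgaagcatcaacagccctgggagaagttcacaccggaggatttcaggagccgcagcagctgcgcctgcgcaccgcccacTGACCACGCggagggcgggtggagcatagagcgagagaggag

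In the other classes no gene passed. *Gstt1*, a theta-class enzyme for small halogenated compounds, ranged from 10.70 to 11.22 in tg and from 10.96 to 11.84 in wt livers, and 9 of 10 tg livers lay below the wt median (log2 fold change -0.29, SE 0.11, limma adjusted p = 0.131). Its neighbour *Gstt3* ran from 7.13 to 8.85 in tg and from 7.41 to 9.63 in wt livers (-0.12, 95% confidence interval -0.69 to 0.46). *Gstp1*, the main pi-class enzyme of mouse liver, differed by -0.03 and was lowest in wt_1423_2-8_9 (12.24), followed by tg_1423_2-8_1 (12.90) and tg_1423_2-8_4 (12.96). *Gstp3* went the other way and was highest in tg_1423_2-8_4 (9.83), tg_1423_2-8_1 (9.60), tg_1420_4 (9.11) and wt_1423_2-8_9 (9.07), where no other array exceeded 8.34. *Gstz1*, which degrades tyrosine products, had the narrowest interval of the strong genes of this family, -0.11 to 0.11. *Gstk1* of mitochondria and peroxisomes, the thiol transferase *Gsto1* and *Gstt2* had log2 fold changes of -0.14 to 0.04. *Gsto2* and *Gstt4* were weak in both genotypes.

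**Figure D2:**
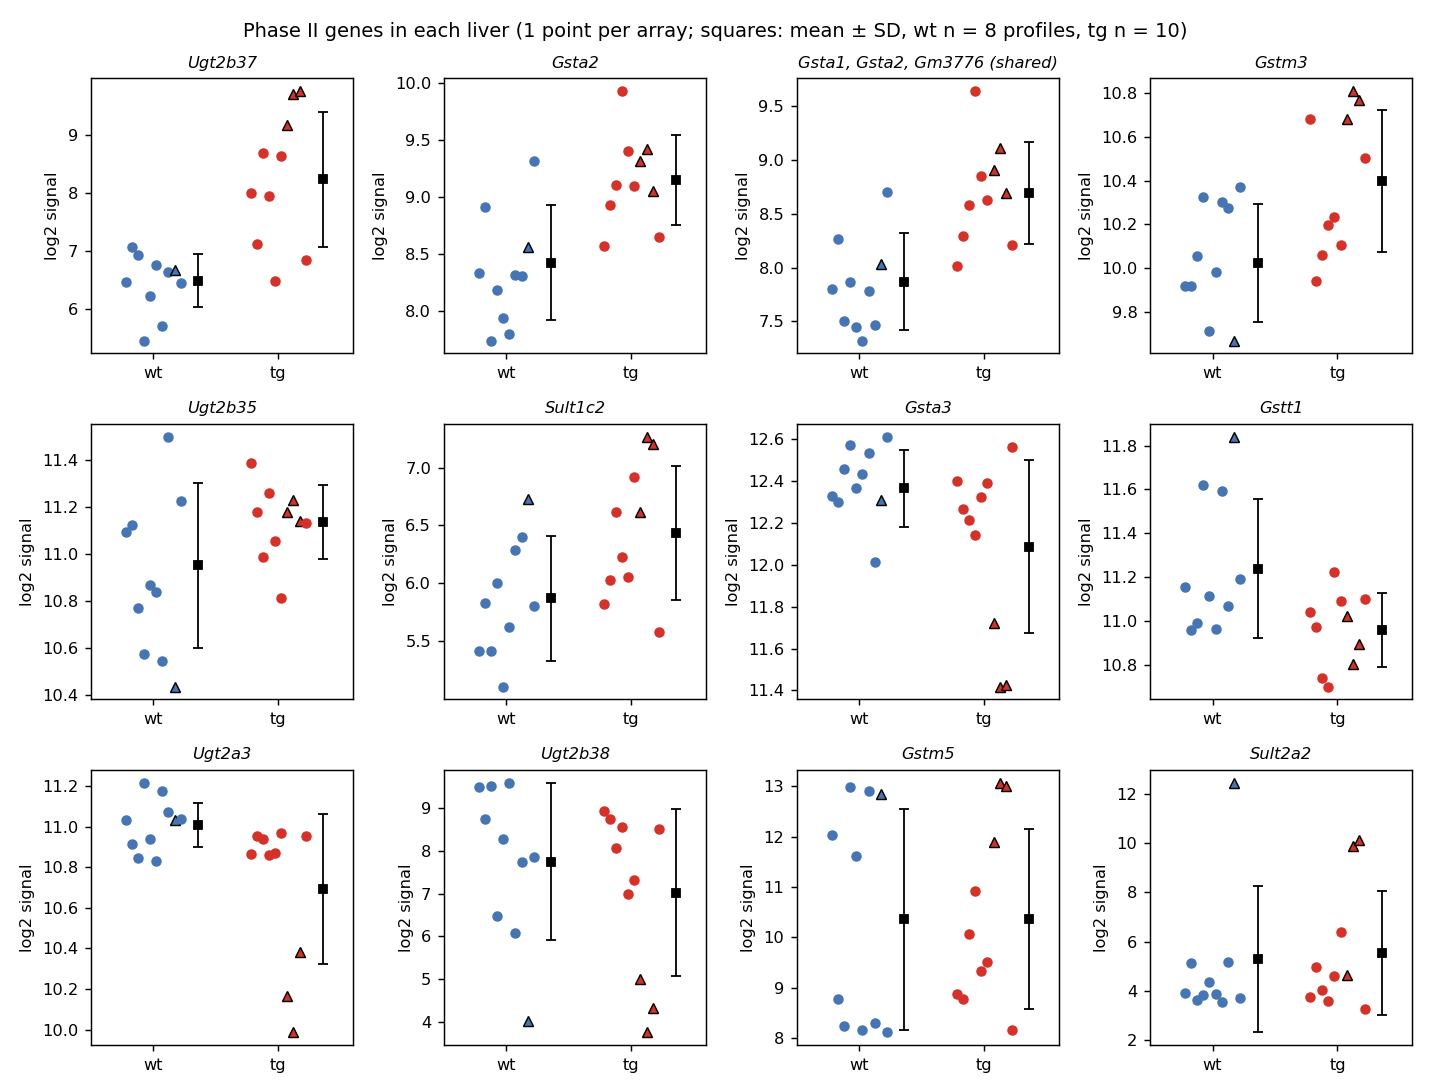
Log2 signal of 11 Phase II genes and of the probe set shared by *Gsta1*, *Gsta2* and *Gm3776*, 1 point per array, with squares and bars for mean ± SD (wt n = 8 profiles, tg n = 10). Triangles mark tg_1420_4, tg_1423_2-8_1, tg_1423_2-8_4 and wt_1423_2-8_9. *Ugt2b37* was above every wt profile in 8 of 10 tg livers, of which tg_1386_9 lay just above its almost identical array wt_1386_4. *Ugt2b38*, *Gstm5* and *Sult2a2* spread widely in both genotypes.

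Sulfotransferases of the cytosol act on phenols, thyroid hormones, steroids and bile acids. By limma 0 of the 13 passed, and at an unadjusted p under 0.05 there were 1 higher and 2 lower. *Sult1c2* ranged from 5.58 to 7.27 in tg (median 6.43) and from 5.11 to 6.73 in wt livers (median 5.82), and 9 of 10 tg livers were above the wt median. Means ± SD were 6.43 ± 0.58 (n = 10) and 5.87 ± 0.54 (n = 8). In limma over all 20 arrays *Sult1c2* differed by 0.57 (SE 0.22, limma adjusted p = 0.152). With the label number in the fit as a replicate block the limma adjusted p was 0.0425, which makes it the third member called. In that fit 981 of all genes were higher in place of 542, and 342 lower in place of 176. With the number as a random block *Sult1c2* was not called (limma adjusted p = 0.106). Without the 4 arrays named above the difference was 0.41 (adjusted p = 0.466). Within the 6 numbers, which are not independent comparisons, it was positive in 5, from -0.22 to 0.86.

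*Sult2a8*, a bile acid sulfotransferase, was low in 4 livers. It stood at 9.67 in tg_1423_2-8_1, 9.90 in tg_1423_2-8_4, 11.23 in wt_1423_2-8_9 and 11.33 in tg_1420_4, and between 12.01 and 12.50 in the other 16 arrays. Between the genotypes it differed by -0.51 (SE 0.32, adjusted p = 0.377 in limma), and by -0.03 without these 4. *Sult2a2*, of the same subfamily, went the other way: it was 12.46 in wt_1423_2-8_9, 10.13 in tg_1423_2-8_4 and 9.90 in tg_1423_2-8_1, and from 3.26 to 6.41 in all other arrays. Among genes at or above the median signal none had a larger SD over wt profiles (2.96). Its log2 fold change of 0.56 had a 95% confidence interval of -1.65 to 2.77. *Sult2a2* is among the enzymes of this subfamily that are known in mice for higher levels in female liver.

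*Sult5a1* ranged from 4.96 to 7.97 in tg and from 6.16 to 7.98 in wt livers (log2 fold change -0.47, SE 0.34, limma adjusted p = 0.454), with its 3 lowest values in tg_1420_4, tg_1423_2-8_1 and tg_1423_2-8_4. *Sult1b1*, which acts on thyroid hormones, ran from 6.36 to 7.73 in tg and from 7.33 to 7.73 in wt livers (-0.37, adjusted p = 0.194), and its 3 lowest values were in the same livers. *Sult1a1*, the main phenol sulfotransferase, had -0.32 (adjusted p = 0.245), and *Sult1d1*, which conjugates catecholamines, 0.17 (adjusted p = 0.609). *Sult1c1*, the oestrogen sulfotransferase *Sult1e1*, *Sult2b1*, *Sult3a1*, *Sult4a1* and *Sult6b1* were weak in both genotypes. *Sult3a1*, another gene of female mouse liver, was weak in all but wt_1423_2-8_9, where it reached 5.88.

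The spread between livers of a genotype was larger for these enzymes than for most genes. The median SD of the 33 members was 0.33 over 8 wt profiles and 0.35 over 10 tg livers. It was 0.15 and 0.18 for the 11945 genes at or above the median signal, which were not matched to the members in signal. An SD above 1 was found in 3 members (9.09%) among wt livers, *Gstm5*, *Sult2a2* and *Ugt2b38*, and in 5 (15.2%) among tg livers, where *Sult2a8* and *Ugt2b37* joined them. The shares of all genes were 0.762% and 1.11%. Leaving out the 4 arrays lowered the member medians to 0.25 and 0.20 and those of all genes to 0.14 and 0.14, and *Gstm5* and *Ugt2b38* then still had wt SDs of 2.10 and 1.14. The plot of spread shows these genes beside all others.

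**Figure D3:**
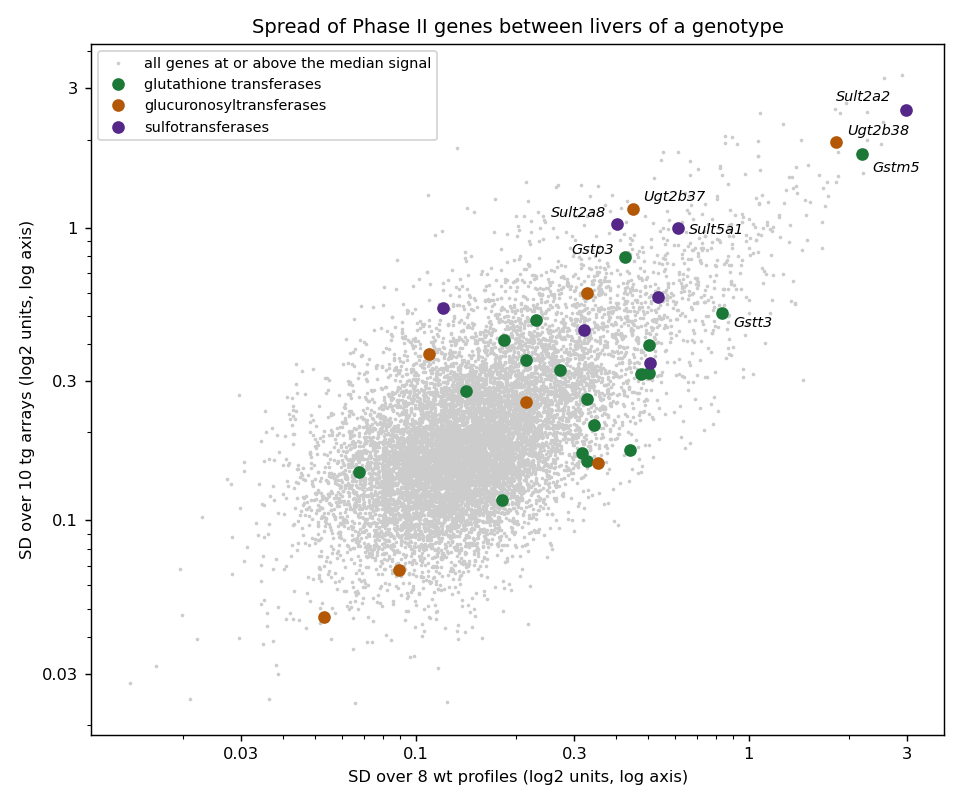
SD of the log2 signal over 8 wt profiles (horizontal, log axis) and over 10 tg arrays (vertical, log axis) for the 33 Phase II genes at or above the median signal, coloured by family, and for all 11945 such genes in grey. *Sult2a2*, *Gstm5* and *Ugt2b38* lie at the upper right in both genotypes, and *Ugt2b37* and *Sult2a8* have an SD above 1 in tg livers only.

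The livers in which many of these genes stood apart are those named above for the lowest male-biased liver genes. Their male-biased means therefore describe that choice and are no separate result. The mean of 11 male-biased genes was 7.05 in tg_1423_2-8_1, 7.53 in tg_1423_2-8_4, 7.53 in wt_1423_2-8_9 and 9.12 in tg_1420_4, and from 10.39 to 11.43 in the other arrays. The mean of 6 female-biased genes was highest in the same livers, 7.94, 7.26, 8.14 and 6.37, and at most 5.87 elsewhere. *Xist* was 3.70 to 4.21 in these livers and 3.51 to 4.74 in the others. Of the Y-linked genes, *Eif2s3y* was 8.95 to 9.14 against 8.92 to 9.57, *Kdm5d* 6.12 to 6.48 against 6.02 to 6.84 and *Uty* 6.19 to 6.44 against 5.73 to 6.37, so the ranges overlapped for all 4 genes. By genotype, 0 of 11 male-biased and 0 of 6 female-biased genes passed in limma, nor did any at an unadjusted p under 0.05. The part of these livers in the differences above was not tested beyond leaving them out. In whole liver, fewer cells of a type and less RNA per cell cannot be told apart.

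**Figure D4:**
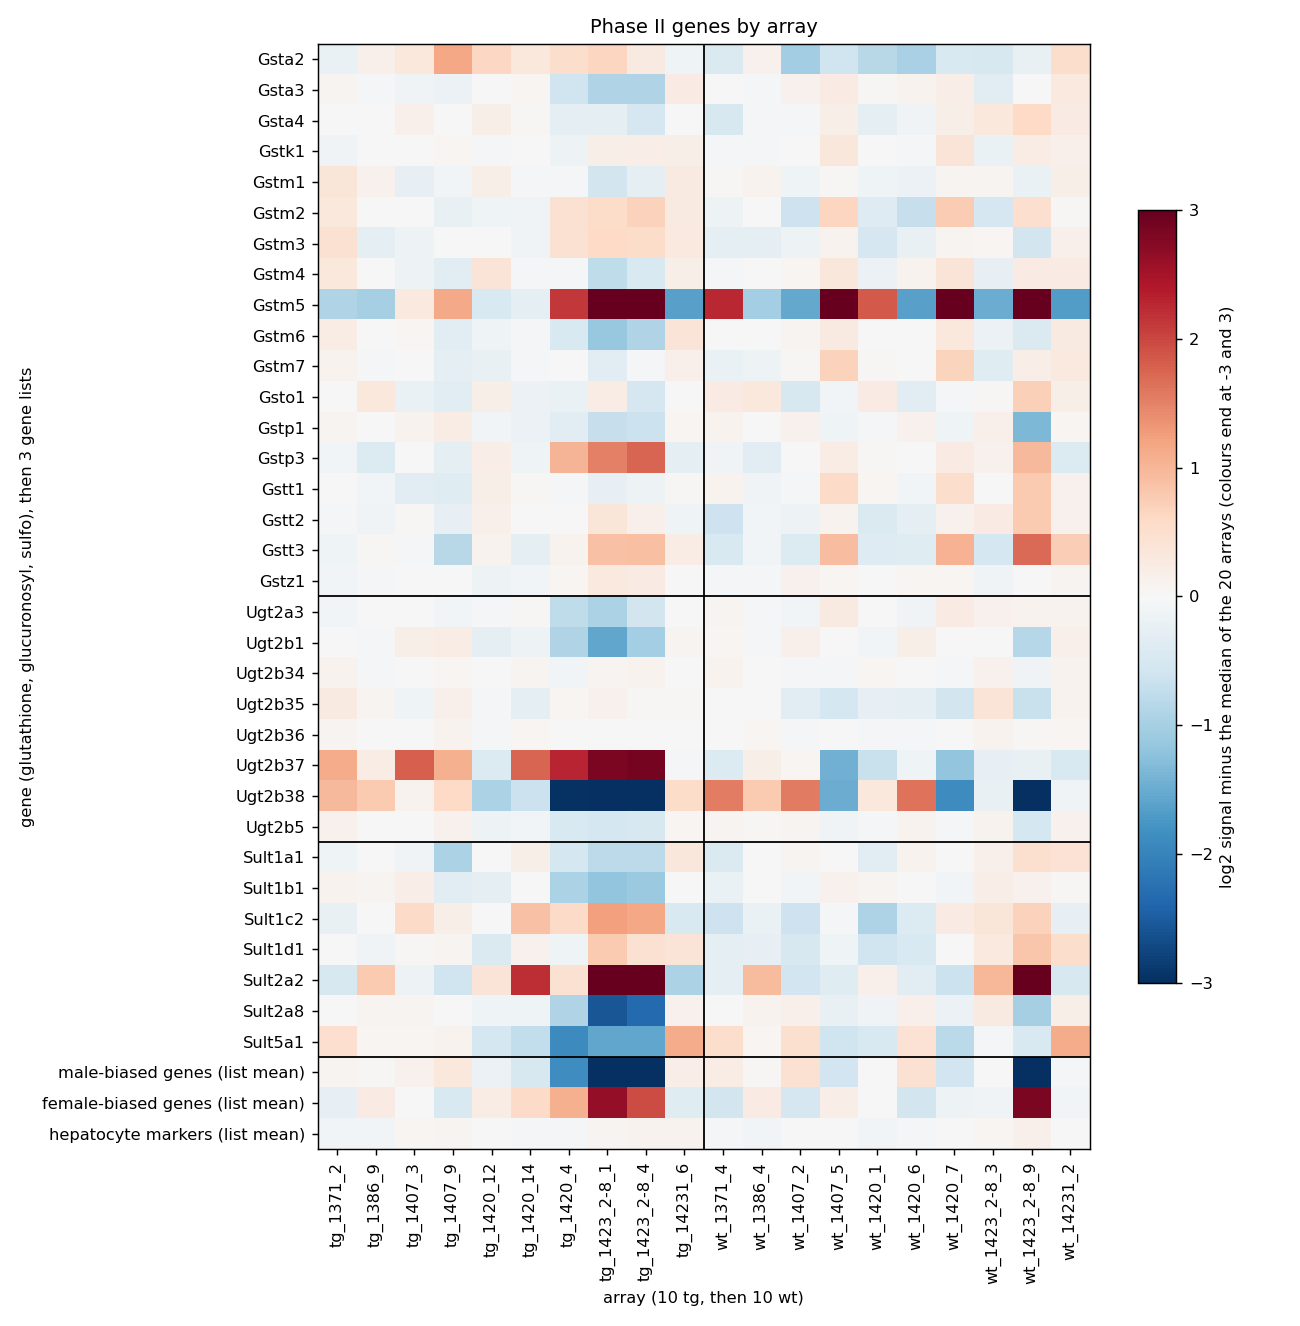
Log2 signal of the 33 Phase II genes at or above the median signal, minus the gene's median over 20 arrays, for each array, with the means of male-biased, female-biased and hepatocyte marker genes in the last rows. Red is above and blue below the median. *Ugt2b38*, *Sult2a8* and the male-biased genes are blue in tg_1420_4, both tg_1423_2-8 livers and wt_1423_2-8_9, where *Gstp3* and the female-biased genes are red, and *Ugt2b37* is red in most tg livers.

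Among genes that work with these enzymes, 0 of 19 measured cofactor and partner genes passed, and at an unadjusted p under 0.05 there were 1 higher and 2 lower. *Ugdh*, which makes UDP-glucuronic acid, differed by 0.03 (SE 0.10, limma adjusted p = 0.875), *Papss2*, which makes PAPS, by 0.32 (adjusted p = 0.439), and *Gclc*, the first enzyme of glutathione synthesis, by -0.01 (adjusted p = 0.985). Microsomal epoxide hydrolase *Ephx1* had the smallest p of this list (0.27, SE 0.08, adjusted p = 0.0625). Of 10 transporters of conjugates 0 passed in limma (0 higher and 1 lower at an unadjusted p under 0.05), and *Abcc2*, which exports conjugates into bile, had -0.16 (adjusted p = 0.465).

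The sensors and their targets followed. Of 11 receptor and regulator genes 0 passed, with 3 higher and 2 lower at an unadjusted p under 0.05. *Nfe2l2*, which encodes NRF2, had 0.61 (SE 0.17, limma adjusted p = 0.0509) and *Ahr* 0.35 (adjusted p = 0.0904). Of 11 NRF2 targets outside the families described here only *Srxn1*, which restores oxidized peroxiredoxins, passed (0.70, SE 0.19, adjusted p = 0.0480), and at an unadjusted p under 0.05 there were 2 higher and 1 lower. The lower was *Me1*, malic enzyme, with -0.65 (SE 0.24, limma adjusted p = 0.133), and *Nqo1*, another NRF2 target, had 0.27 (adjusted p = 0.481). Of 10 targets of CAR, PXR and AhR 0 passed in limma, with 1 higher and 0 lower at an unadjusted p under 0.05. *Cyp2b10*, the main CAR target, had 0.16 (adjusted p = 0.685).

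Motifs were counted on both strands of the 250 upstream bases of 37 members with a promoter in the table and of 27025 genes in all. TGACNNNGC was present in 3 of 18 glutathione transferases and in 0 of 8 glucuronosyltransferases and 0 of 11 sulfotransferases, 8.11% of the members against 11.5% of all genes. GCGTG was found in 8 members (21.6% against 30.9%), the interferon-gamma activated site TTCNNNGAA in 2 (5.41% against 8.13%) and the HNF1 motif GTTAAT in 4 (10.8% against 7.49%). The promoters of *Ugt2b37* and *Ugt2b38* held none of these 4, which says only that these letters are not in those windows.

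Markers of other liver cells were compared beside the called genes. Of 8 Kupffer cell and macrophage markers 5 were higher in tg livers (*Cd5l*, *Cd68*, *Clec4f*, *Marco* and *Vsig4*, log2 fold changes 0.46 to 0.79, limma adjusted p at most 0.0297), and the list mean ran from 7.60 to 8.37 in tg and from 7.26 to 7.91 in wt livers. Of 8 cholangiocyte markers *Pkhd1* passed (0.94, adjusted p = 0.0400), of 8 endothelial markers *Lyve1* (0.995, adjusted p = 0.0214) and of 9 periportal genes *Cdh1* (0.82, adjusted p = 0.0381). The cholangiocyte mean ran from 4.96 to 5.50 in tg and from 4.61 to 5.20 in wt livers, with 4 of 8 markers weak in both genotypes, and the endothelial mean from 6.57 to 7.07 and from 6.15 to 6.85. Their part in the rise of *Ugt2b37* and *Gsta2* was not tested. None of the stellate cell, lymphocyte, pancreas and gut, erythroid or pericentral genes passed in limma, and at an unadjusted p under 0.05 there were 3 stellate cell genes higher and 2 lymphocyte, 2 pancreas and gut and 3 pericentral genes lower.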

How the data were processed

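Livers of 10 tg and 10 wt mice were measured on Affymetrix Mouse Genome arrays. The authors normalized them by RMA (version not given in the sources used here), and the deposited log2 values of 45101 probe sets were used unchanged. Signals of weak genes are compressed by this method. Of the probe sets 34958 carry 1 symbol, 932 several and 9211 none in the array annotation supplied, which names 18194 genes. No array column was without a sample.

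limma 3.58.1 in R 4.3.3 was fitted to all 20 arrays with genotype alone, with Benjamini-Hochberg adjustment over all probe sets and a threshold of 0.05. Exact tests, lists and figures used Python 3.11.15, numpy 2.4.6, pandas 2.3.3, scipy 1.17.1 and matplotlib 3.10.9, and promoters were aligned with Biopython 1.88. Members and gene lists were chosen with earlier results of these data known, and wt_1423_2-8_9 joined the arrays left out after its values were seen. Genes were named if called or, per family, among the 4 largest differences or 3 largest wt SDs at a mean of at least 4.53, and other members by role. Sequences are from the RefSeq table of GRCm38.p6. A comparison of protein sequences was not run.

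The 6 numbers in sample names occur in both genotypes, and no source used here says what they mean. After removal of genotype means, arrays of the same number correlated across genotypes in all 6 (0.184 to 0.404). For 1371 the tg array correlated better with wt arrays of another number. The correlation for 1386 (0.382) is that of the almost identical arrays tg_1386_9 and wt_1386_4. Both almost identical wt pairs join numbers 1407 and 1420. The fit with the number as a block is given where it changes a call. On simulated data with 45101 probe sets, limma found 71 of 100 genes changed by 0.5 and 99 of 100 changed by 1 on the log2 scale, and 8 of its 178 calls were false. The simulated arrays were independent, with none almost identical, and the changed probe sets were drawn at random from those at or above the median signal. The 33 members had larger SDs (medians 0.33 in wt and 0.35 in tg livers), so these rates do not carry over to them. The number of arrays limits the precision. Alternatives were other scalings, filters, empirical Bayes settings, array weights, an *Xist* covariate, the number as a block, other probe sets, and arrays averaged or left out.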

Additional observations from a re-analysis of the deposited data

Results flagged for a closer look

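Among wt livers, wt_1423_2-8_9 stood far from the other profiles in 3 genes. *Sult2a2* was 12.46 there and at most 5.19 in the others, a gap of 0.830 of the whole wt range. *Ugt2b1* was 11.63 and at least 12.40 in the others (0.756 of the range), and *Sult2a8* 11.23 against at least 12.03 (0.632). For 8 profiles a gap above 0.526 of the range counts as far. Of 30 groups examined 3 had such a sample, and chance gives about 1 in 20, a rate that does not hold here because the genes were named partly for a large SD between wt livers. The probe set shared by *Gsta1*, *Gsta2* and *Gm3776*, which stands for none of the 41 genes, was higher in tg livers by 0.88 on the log2 scale in limma over all 20 arrays. Its means were 8.70 in tg livers and 7.87 over the 8 wt profiles.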

How the results depend on the processing

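There were 2 or 3 higher members in 10 of 16 alternatives and 0 lower in all 16. Of these, taking the probe set of second highest mean could not change the calls of *Ugt2b37* and *Gsta2*, which have 1 single-gene probe set each. Over the 16 alternatives, family medians moved by less than the SD over wt profiles of the family's median log2 signal. This SD was 0.26 for glutathione transferases, 0.14 for glucuronosyltransferases and 0.72 for sulfotransferases. It measures signal and not fold change, so staying below it does not show that the medians were stable. The medians ran from -0.05 to -0.02 for glutathione transferases. They crossed 0 for glucuronosyltransferases (-0.07 to 0.04) and sulfotransferases (-0.32 to 0.01), with -0.32 where only the 7 at or above the median signal were kept. With the label number as a fixed term (replicate block) 3 members were higher, with *Sult1c2* as the 1 sulfotransferase called (adjusted p = 0.0425). With the number as a random block 2 were higher and *Sult1c2* was not called (adjusted p = 0.106). Neither block changed the call of another member. Over all genes 981 were higher with the fixed term and 763 with the random block, in place of 542. With near-identical wt arrays averaged, and also with tg_1386_9 and wt_1386_4 then left out, 1 was higher and 0 glutathione transferases were called (*Gsta2* 0.72, adjusted p = 0.0842, and 0.82, adjusted p = 0.0605). Without probe sets of the suffixes _s_at, _x_at and _a_at it was 1 in all and 0 glutathione transferases, because the only probe set of *Gsta2* alone ends in _a_at, a suffix for several transcripts of one gene. The count was 0 in all, with 0 glutathione transferases and 0 glucuronosyltransferases, without tg_1420_4, tg_1423_2-8_1 and tg_1423_2-8_4 (*Ugt2b37* 1.24, adjusted p = 0.0865, *Gsta2* 0.76, adjusted p = 0.152), without these and wt_1423_2-8_9 (1.26, adjusted p = 0.110, and 0.78, adjusted p = 0.176, chosen after seeing the data) and without the 4 tg_1423_2-8 and wt_1423_2-8 arrays (1.48, adjusted p = 0.106, and 0.81, adjusted p = 0.145). Fewer arrays enter these fits, and over all genes 107, 76 and 46 were then higher in place of 542. Leaving out 1 array at a time gave 1 to 2 higher members and 0 to 1 glutathione transferases. The cause was not tested otherwise. Signals near background bound what can be said of the 8 weak genes.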
